A study of Mus musculus with 6 samples.

Results

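The Arp2/3 complex starts a new actin filament as a branch on the side of an existing one. It does so when it is activated, for example by a protein of the WASP or WAVE family. In fibroblasts the branched network it builds pushes the cell edge forward. Accessibility was examined here at 10 genes, 7 for subunits of the complex (Actr2, Actr3, Arpc1a, Arpc1b, Arpc2, Arpc3 and Arpc5) and 3 for activators (Wasl, Wasf1 and Wasf2). The members were the regions of the deposited ATAC-seq table whose gene name was one of these, at any distance from the transcription start site (TSS). This gave 15 of 63430 regions, and all 15 passed the filter on low values that left 61327 for testing. Of the 15, 10 had their centre within 1000 bp of the TSS, 1 for each gene, and are called promoter regions below.

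ATAC-seq measures open chromatin by the insertion of adapters with the transposase Tn5. The cells were NIH/3T3, a mouse embryonic fibroblast line, and all of them carried a knock-in of Cas13d, an enzyme that cuts RNA and not DNA. The Actg1 guide group received a guide RNA, by transfection, that targets the Actg1 transcript for degradation (Actg1 is the gene of cytoplasmic gamma-actin), and the GFP guide group, the control, one that targets GFP. Each group had 3 libraries, and each library was made from 25000 cells tagmented for 30 min at 37 °C. The stated question was what mRNA decay contributes to transcriptional adaptation, where breakdown of a mutant or targeted transcript goes with altered transcription of related genes. The submitters call the 3 libraries biological replicates of 1 cell line without naming separate cultures, so p-values describe only how these samples spread, which may be technical.

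Estimated reads in regions ranged from 5675571 to 9525330 per library. The first and second GFP guide libraries differed from each other by no more than sampling noise (chi-square per region 0.992, upper-tail p = 0.913). The other pairs within a group gave 1.04 to 1.12 per region. The tests counted the mean of the first and second GFP guide libraries as 1 sample. This gave GFP guide replicate 3 the same weight as that pair. The table named 0 regions for Actg1, and 0 lay within 10000 bp of the gene, so the targeted gene gave no check of the labels. All 10 fibroblast marker genes looked up had a region, with a summed signal of 4576 to 4770 in the GFP guide libraries and 4535 to 4617 in the Actg1 guide libraries. Single regions moved in both directions under these sums, with 5 called higher and 6 lower of 23 (47.8%). Of all tested regions 41.3% were called. Of markers of other cell types, 2 of 5 epithelial genes (Krt8 and Krt14; 219 to 252 against 167 to 208), 0 of 4 endothelial, 2 of 4 blood (Cd68 and Ptprc; 183 to 200 against 223 to 252) and 1 of 4 neuronal genes (Tubb3; 235 to 274 against 248 to 284) had one. Epcam, Cdh1, Krt18, Spi1, Itgam, Rbfox3, Snap25 and Syp had none. Of the 7 regions of these other markers, 2 were called higher with the Actg1 guide and 1 lower, beside the same share of 41.3%. The higher ones were at Cd68 (log2 fold change 1.04) and 1215 bp from the Tubb3 TSS (0.40). The lower one was 2707 bp from the Krt8 TSS (-1.28). The other 4, at Ptprc, Krt14 and nearest to the TSS of Krt8 and Tubb3, had log2 fold changes of -0.03 to -0.02 and were not called. Their part in the results below was not tested. In a bulk library, more cells with an open region and a more open region per cell cannot be told apart.

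The sequences before the start of Actr3, Arpc1b, Wasl and Wasf2 are shown because their promoter regions were the 4 called below, and that of Arpc1a because it is the alternative to Arpc1b in the complex. They are from RefSeq (GRCm38.p6, the build also called mm10), read 5′ to 3′ on the strand of the gene, and end at the last base before the outermost annotated start. Every base shown lay inside the accessible region of its gene. Capitals mark matches on either strand to the GC box (GGGCGG), the CCAAT box (CCAAT) and the core bound by ETS factors (CGGAAG).
Actr3, chr1:125435728-125435977, - strand: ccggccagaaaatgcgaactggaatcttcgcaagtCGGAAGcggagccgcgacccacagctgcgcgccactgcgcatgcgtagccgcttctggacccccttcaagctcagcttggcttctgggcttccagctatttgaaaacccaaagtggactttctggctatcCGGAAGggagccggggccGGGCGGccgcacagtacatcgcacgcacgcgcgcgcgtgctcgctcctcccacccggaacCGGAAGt
Arpc1b, chr5:145114006-145114214, + strand: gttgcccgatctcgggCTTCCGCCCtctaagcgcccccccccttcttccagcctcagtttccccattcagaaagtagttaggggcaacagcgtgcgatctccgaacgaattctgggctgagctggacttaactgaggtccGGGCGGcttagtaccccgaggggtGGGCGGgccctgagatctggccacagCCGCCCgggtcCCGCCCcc
Arpc1a, chr5:145083619-145083829, + strand: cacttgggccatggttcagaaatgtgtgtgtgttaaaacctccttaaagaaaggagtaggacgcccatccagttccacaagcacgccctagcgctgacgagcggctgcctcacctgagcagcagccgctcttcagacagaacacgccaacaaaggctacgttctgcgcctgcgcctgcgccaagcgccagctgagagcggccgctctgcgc
Wasl, chr6:24665010-24665245, - strand: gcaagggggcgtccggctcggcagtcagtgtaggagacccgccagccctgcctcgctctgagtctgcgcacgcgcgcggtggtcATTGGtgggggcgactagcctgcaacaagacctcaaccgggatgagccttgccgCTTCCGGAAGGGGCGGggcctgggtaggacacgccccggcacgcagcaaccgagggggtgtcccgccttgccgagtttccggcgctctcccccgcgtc
Wasf2, chr4:133130383-133130504, + strand: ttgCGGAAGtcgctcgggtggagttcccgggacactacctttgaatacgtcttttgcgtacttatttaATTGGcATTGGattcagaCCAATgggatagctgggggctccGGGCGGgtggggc
Arpc1b showed 5 matches to the GC box and 1 to the ETS core, which overlaps a GC box. Actr3 showed 1 GC box and 3 ETS cores, and Wasl 1 GC box, 1 CCAAT box and 2 ETS cores that overlap each other. Wasf2, the one of the 4 that was called higher, showed 3 CCAAT boxes, 1 GC box and 1 ETS core. The stretch of Arpc1a shown held 0 matches. A match is a description of letters, not a bound site.

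RefSeq promoter windows of 300 bases, 250 before and 50 after the start, matched all 10 genes. A GC box was in 9 of the 10, all but Arpc1a, against 35.6% of 32807 promoter windows and 68.1% of the 11259 whose start lay in an accessible region. An ETS core was in 8 of the 10, all but Arpc5 and Wasf1, against 16.9% and 34% of those windows. A CCAAT box was in 5 of the 10, against 37.4% and 38.5%. The AP-1 motif (TGACTCA), the cAMP response element (TGACGTCA), the TATA box (TATAAA) and the CArG box, the motif of the actin-responsive factor SRF, were in 0 of the 10. They were in 5.21%, 1.79%, 13.6% and 1.63% of all windows and in 4.42%, 3.45%, 5.87% and 1.29% of those with an accessible start. The TEAD motif (GGAATG) was in 2 of the 10, Arpc2 and Wasf1, against 14.7% and 11.8%. The windows held 52.7% to 73.7% G and C, with the lowest in Arpc3, where the median was 52.7% over all windows and 62% over those with an accessible start. They held 17 to 41 CpG dinucleotides, against medians of 7 and 22.

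Some of these regions hold the start of a further gene. The Wasf1 promoter region also held the start of Cdc40, a splicing factor gene on the opposite strand, 391 bp from that of Wasf1. The Arpc5 promoter region held a start of Rgl1, a regulator of Ral GTPases, 237 bp from that of Arpc5. The table gives each region 1 name, so which gene's promoter the signal belongs to cannot be told apart. In the other 8 promoter regions the one RefSeq start was that of the named gene.

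With the Actg1 guide, 2 of the 15 regions were higher and 4 lower, by limma's test with p-values adjusted over all tested regions and a threshold of 0.05. A log2 change below is the log2 fold change of the Actg1 guide over the GFP guide on log2(signal + 1), and each adjusted p is limma's. The largest change was at a region inside Arpc1b, which fell to 0.669 of its level with the GFP guide. Falls to 0.861 to 0.888 of that level were called at the promoters of Arpc1b, Actr3 and Wasl. Rises were called at the promoter of Wasf2 (1.19-fold) and at a second region of Wasf1 (1.42-fold). Of all tested regions 41.3% were called, 20.6% higher and 20.7% lower, so 6 called of 15 (40%) is near the background share. Without GFP guide replicate 3 the call count was 0 higher and 1 lower, and 20.9% of all regions were called. It was 1 higher with 3, 2 and 4 lower when Actg1 guide replicate 1, 2 or 3 was left out. Of all regions 34.4%, 36.1% and 37.5% were then called. Without GFP guide replicate 1 the count was 1 higher and 3 lower (39.5% of all regions called). Without GFP guide replicate 2 it was 2 higher and 5 lower (40.3%).

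Of the 10 promoter regions, 1 was higher and 3 lower (40%), where 32.7% of all promoter regions were called, 14.0% higher and 18.7% lower. The 5 regions farther from the TSS had 1 of each direction, where 40.7% of such regions were called. The libraries of the groups did not overlap at 8 of the 15 regions, 4 in each direction, against 50.8% of all tested regions. The median log2 change was -0.06 over the 15 regions and -0.10 over the 10 promoter regions, against -0.01 and -0.02 over all regions and all promoter regions. The median size regardless of sign was 0.16 at the 10 promoter regions and 0.15 at all promoter regions.

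**Figure D1:**
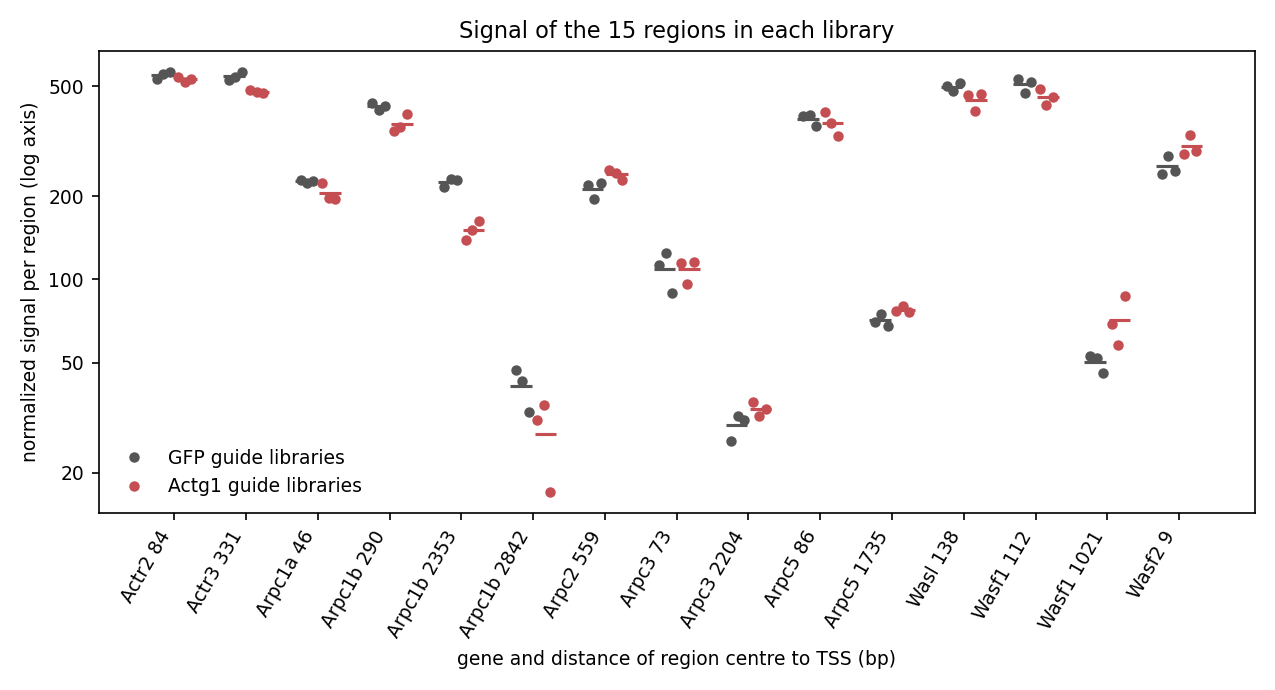
Normalized signal (log axis) of the 15 regions, named by gene and distance to the TSS in bp, in each GFP guide library (grey) and Actg1 guide library (red), with a line at the mean of the 3 libraries of each group. The region of Arpc1b at 2353 bp shows the largest called change, with 216 to 231 against 139 to 163.

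The signal per kb of region placed the 10 promoters in an order with the same top and bottom genes under both guides. With the GFP guide it ran from 525 ± 14.7 (SD, n = 3 libraries) at Actr2 to 142 ± 23.9 at Arpc3. Between them, per kb, came Wasf1 at 470, Wasl at 423, Actr3 at 418, Arpc5 at 387, Arpc1a at 382, Arpc1b at 364, Wasf2 at 274 and Arpc2 at 209. Wasl and Actr3 overlapped in their library values, as did Arpc5 and Arpc1a, and the other neighbours in the order did not. With the Actg1 guide Actr2 was again at the top, at 506 ± 10.2 (SD, n = 3), and Arpc2 (236 ± 10.3) and Arpc3 (142 ± 14.7) at the bottom. Each neighbour from Wasf1 at 424 down to Arpc1b at 314 then overlapped the next. The median over all promoter regions was 290 with either guide, so 7 of the 10 genes lay above it with the GFP guide, and Wasf2, Arpc2 and Arpc3 below. With the Actg1 guide Wasf2 lay above it, at 325 per kb (libraries at 304 to 357), and only Arpc2 and Arpc3 below.

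Actr2 and Actr3 encode Arp2 and Arp3, the actin-related subunits that form the first units of the new branch. The Actr3 promoter (chr1:125434748-125436044) had signals of 526, 539 and 563 in GFP guide replicates 1, 2 and 3 and 485, 475 and 470 in Actg1 guide replicates 1, 2 and 3. All Actg1 guide libraries lay below the lowest GFP guide library. The log2 change was -0.20 (SE 0.0616, adjusted p = 0.00792). With GFP guide replicate 3 left out, so that 1 control sample remained and was assumed to vary like the others, it was -0.16 and did not pass (adjusted p = 0.149).

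The Actr2 promoter (chr11:20112306-20113351) had 532, 553 and 562 with the GFP guide and 539, 518 and 532 with the Actg1 guide. These groups overlapped, and the log2 change was -0.06 (SE 0.0596, adjusted p = 0.445). The log2 ratio of Actr3 to Actr2 was -0.02, -0.04 and 0.00 with the GFP guide and -0.15, -0.12 and -0.18 with the Actg1 guide. Its difference of -0.14 gave p = 0.1 by an exact two-sided permutation test, the smallest p that 2 against 3 samples allow (0.3 adjusted over 3 ratios). A different response of the 2 genes is therefore not shown.

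Arpc1a and Arpc1b encode alternative forms of 1 subunit, and they lie next to each other on chromosome 5 in the same orientation. Arpc1b had 3 regions. Its promoter (chr5:145113925-145115084) had 433, 411 and 423 with the GFP guide and 344, 354 and 395 with the Actg1 guide, without overlap, a log2 change of -0.22 (SE 0.0716, adjusted p = 0.0135). That call ended without GFP guide replicate 3 (adjusted p = 0.149) and without Actg1 guide replicate 1 (0.0844) or 2 (0.0585), at log2 changes of -0.21, -0.18 and -0.20.

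The second Arpc1b region (chr5:145116287-145116848) lies in the gene body, 2353 bp from the TSS. Its signals were 216, 231 and 228 with the GFP guide and 139, 151 and 163 with the Actg1 guide. The highest Actg1 guide library was far below the lowest GFP guide library, and the log2 change was -0.58 (SE 0.1, adjusted p = 8.63e-06). This call held in all 15 alternatives, with log2 changes of -0.64 to -0.52 and adjusted p-values up to 0.0151. The third region (chr5:145116994-145117119), 2842 bp from the TSS, had 47, 43 and 33 against 31, 35 and 17. These overlapped, and its log2 change of -0.53 (SE 0.251) did not pass (adjusted p = 0.0898). It passed in the fit to estimated reads (-0.56, voom adjusted p = 0.0282), with the libraries as 6 separate samples (-0.60, 0.021) and with the replicate block (-0.60, 0.0138), and it was -0.22 without Actg1 guide replicate 3 (0.464).

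The signal at 2353 bp was 0.5 to 0.563 of that at the Arpc1b promoter in the GFP guide libraries and 0.406 to 0.428 in the Actg1 guide libraries. This ratio was chosen after its values had been seen. The groups did not overlap, and the difference of -0.36 in the log2 ratio gave the smallest exact permutation p the samples allow, 0.1.

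The Arpc1a promoter (chr5:145083580-145084171) had 229, 223 and 226 with the GFP guide and 223, 197 and 196 with the Actg1 guide, a log2 change of -0.14 (SE 0.0921, adjusted p = 0.228). The value 223 occurred in both groups, so they met at their edges. The ratio of these promoters is of whole regions, 1160 bp long at Arpc1b and 592 bp at Arpc1a, and not per kb. Per kb Arpc1a was the higher, at 382 against 364 with the GFP guide and 347 against 314 with the Actg1 guide. The log2 ratio of the Arpc1b promoter to that of Arpc1a was 0.92, 0.88 and 0.90 with the GFP guide. With the Actg1 guide it was 0.62, 0.84 and 1.01. The Actg1 guide libraries lay on both sides of the others (difference -0.08, exact permutation p = 0.7, and 0.7 adjusted over 3 ratios). Summed over all regions of each gene, the difference was -0.20 (exact permutation p = 0.2). From 20000 bp before Arpc1a to 20000 bp after Arpc1b, 4 other regions were tested and 0 were called, where 41.3% of all regions were. The promoter of Pdap1, a neighbour past the end of Arpc1b, had a log2 change of 0.08 (adjusted p = 0.424). The others were low, with signals of 7 to 31 per library. Their log2 changes were -0.21 (SE 0.379), -0.29 (SE 0.276) and 0.67 (SE 0.347), so a change there could have been missed.

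**Figure D2:**
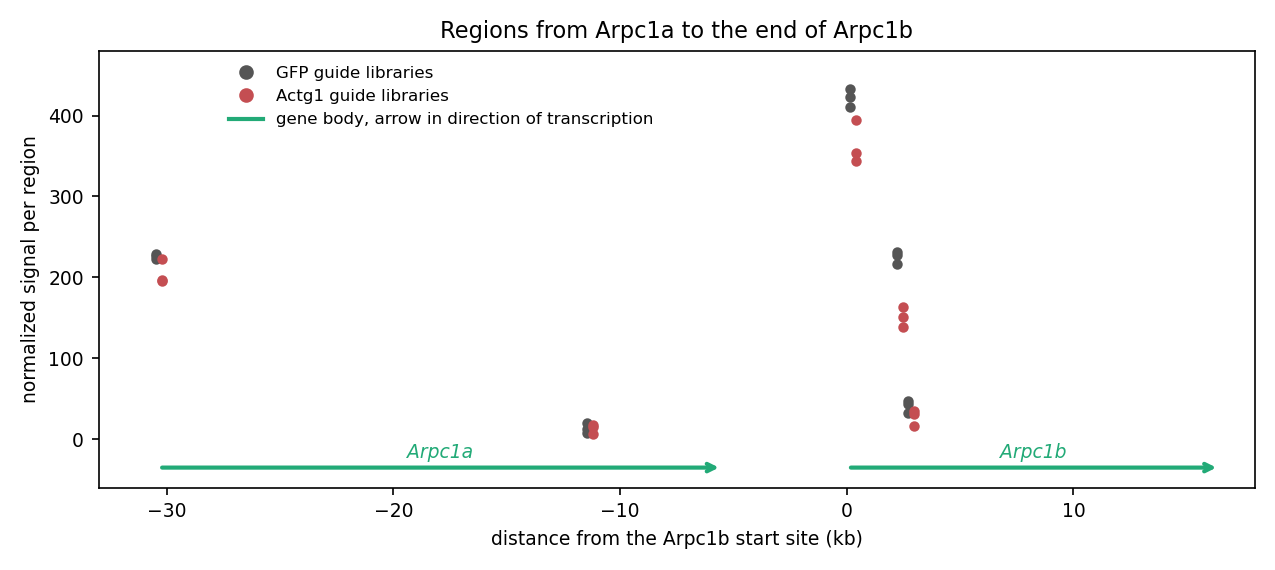
Normalized signal of each region from Arpc1a to the end of Arpc1b against the distance from the Arpc1b start in kb, with 1 point per GFP guide library (grey, shifted left) and Actg1 guide library (red, shifted right), and green arrows for the gene bodies. At Arpc1b the Actg1 guide libraries lie below the others at the promoter and at 2353 bp, while the Arpc1a promoter, at 223 to 229 against 196 to 223, shows the groups meeting.

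Arpc2 encodes the subunit that, with Arpc4, holds the complex on the existing filament. Its promoter (chr1:74236136-74237150) had 219, 195 and 223 with the GFP guide and 248, 243 and 228 with the Actg1 guide. The groups did not overlap, but the log2 change of 0.16 (SE 0.0883) did not pass (adjusted p = 0.157). It passed in 1 alternative, the fit to estimated reads (0.19, voom adjusted p = 0.0476).

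Arpc3 and Arpc5 encode small subunits bound beside Arp3 and Arp2. The Arpc3 promoter (chr5:122391567-122392334) had 113, 125 and 89 against 115, 96 and 116, with a mean of 109.0 in both groups of 3 libraries. Its log2 change was 0.08 (SE 0.134, adjusted p = 0.682) and -0.13 without GFP guide replicate 3. The Arpc5 promoter (chr1:152766138-152767118) had 388, 392 and 359 against 403, 369 and 329, a log2 change of -0.03 (SE 0.0765, adjusted p = 0.765). The libraries of each gene overlapped between groups.

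Each of these 2 genes had a weaker region inside the gene. The Arpc5 region 1735 bp from the TSS had 70, 75 and 68 against 77, 80 and 76, which did not overlap, with a log2 change of 0.14 (adjusted p = 0.46). The Arpc3 region 2204 bp from the TSS had 26, 32 and 31 against 36, 32 and 34 (0.17, adjusted p = 0.558). Of the 9 regions of the Arpc subunits, 0 were called higher and 2 lower, both at Arpc1b (22.2%). Of all regions 41.3% were called, and of all promoter regions 32.7%.

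Wasl encodes N-WASP, which opens on binding Cdc42 and membrane phosphoinositides and then activates the complex. Its promoter (chr6:24664282-24665459) had 500, 480 and 514 with the GFP guide and 465, 407 and 468 with the Actg1 guide. The groups did not overlap, with 468 below 480, and the log2 change was -0.17 (SE 0.0671, adjusted p = 0.0375). This was the weakest of the 6 calls and ended in 7 of 15 alternatives. They were equal total signal (adjusted p = 0.0661) and cyclic loess scaling (0.0796), the fit to estimated reads (0.0534), and leaving out GFP guide replicate 1 (0.072) or 3 (0.34) or Actg1 guide replicate 1 (0.0541) or 2 (0.195).

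Wasf1 and Wasf2 encode WAVE1 and WAVE2, which act downstream of the GTPase Rac within a larger regulatory complex. The Wasf2 promoter (chr4:133130030-133130962) had 241, 280 and 247 with the GFP guide and 284, 333 and 292 with the Actg1 guide. All Actg1 guide libraries were above the others, the nearest by 284 to 280, and the log2 change was 0.25 (SE 0.0829, adjusted p = 0.0127). The call ended without GFP guide replicate 1 (0.20, adjusted p = 0.0636), GFP guide replicate 3 (0.21, 0.202) or Actg1 guide replicate 2 (0.18, 0.088).

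The Wasf1 promoter region, shared with Cdc40 (chr10:40883048-40884126), had 530, 473 and 517 with the GFP guide and 489, 426 and 457 with the Actg1 guide. The groups overlapped, and the log2 change of -0.16 (SE 0.0655) lay just outside the threshold (adjusted p = 0.0506). It passed in 6 of 15 alternatives. These were a pseudocount of 5 (adjusted p = 0.048), a filter at a signal of 30 (0.0464), the libraries as 6 separate samples (0.0358), the replicate block (0.0233), and leaving out GFP guide replicate 2 (-0.20, 0.0167) or Actg1 guide replicate 1 (-0.21, 0.0282).

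A second Wasf1 region (chr10:40884287-40884704), 1021 bp from the TSS and thus just outside the promoter window, had 53, 52 and 46 against 69, 58 and 87. All Actg1 guide libraries were above, and they spread more widely, between 58 and 87. The log2 change was 0.51 (SE 0.171, adjusted p = 0.0148), and the call ended without GFP guide replicate 3 (0.42, 0.24) and without Actg1 guide replicate 1 (0.52, 0.0611) or 3 (0.36, 0.12).

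The log2 ratio of this region to the Wasf1 promoter was -3.30, -3.16 and -3.46 with the GFP guide and -2.81, -2.86 and -2.38 with the Actg1 guide (difference 0.67, exact permutation p = 0.1, the smallest possible). It was chosen after its values had been seen. The log2 ratio of the Wasf2 to the Wasf1 promoter was -1.13, -0.75 and -1.06 against -0.78, -0.35 and -0.64. These overlapped, and the difference of 0.41 gave an exact permutation p of 0.2 (0.3 adjusted over 3 ratios).

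**Figure D3:**
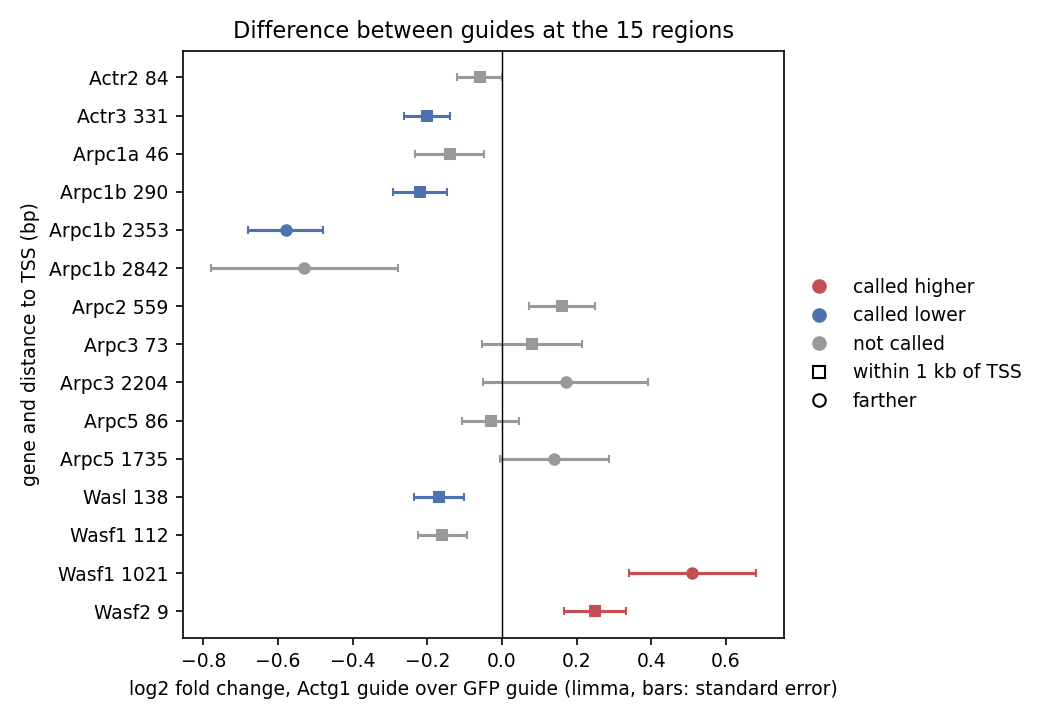
Log2 fold change of the Actg1 guide over the GFP guide at the 15 regions (x axis), with bars of 1 standard error from limma; squares are promoter regions and circles those farther from the TSS. The called regions are coloured, 2 higher (Wasf1 at 1021 bp, Wasf2) and 4 lower (Actr3, Wasl and Arpc1b at 290 and 2353 bp).

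Beyond the regions that carry the genes' names, 12 more regions lay in the bodies of these 10 genes, with no gene assigned, and 11 of them were tested. They were looked up after the earlier values had been seen. Of the 11, 1 was higher and 4 lower, which is near the 41.3% called of all tested regions. The largest fall was in Arpc2 (chr1:74248900-74249621), 13176 bp after its start, with 94, 96 and 85 against 36, 59 and 50. All Actg1 guide libraries lay far below, with a log2 change of -0.91 (SE 0.175, adjusted p = 4.7e-05), and the call held in all 15 alternatives. Thus Arpc2 had a promoter that did not pass, at 0.16, and a body region that fell.

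In Actr2 a region 46549 bp after the start (chr11:20066193-20066536) had 45, 59 and 46 against 32, 20 and 32 (log2 change -0.81, adjusted p = 0.00313). Wasl had a change of each direction in its body. The region 7167 bp after its start had 69, 78 and 74 against 50, 47 and 53 (-0.55, adjusted p = 0.00603), and that at 36269 bp had 78, 80 and 84 against 109, 110 and 113 (0.44, adjusted p = 0.00553). Both separated the groups without overlap. In Wasf2, whose promoter rose, the region 54901 bp after the start had 69, 84 and 88 against 60, 53 and 69 (-0.44, adjusted p = 0.023), where the value 69 occurred in both groups.

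The rise in Wasl held in all 15 alternatives. Without GFP guide replicate 3 the falls in Actr2 (-0.90, adjusted p = 0.0727), Wasl (-0.55, 0.0802) and Wasf2 (-0.34, 0.278) did not pass, and that in Wasf2 also not without GFP guide replicate 2 (0.0765), nor once replicate 1 (0.0672) or 2 (0.0937) of the Actg1 guide was left out. The bodies of Arpc1b, Arpc3 and Arpc5 held 0 further regions. That of Actr3 held 1, with a log2 change of 0.01 (adjusted p = 0.978).

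**Figure D4:**
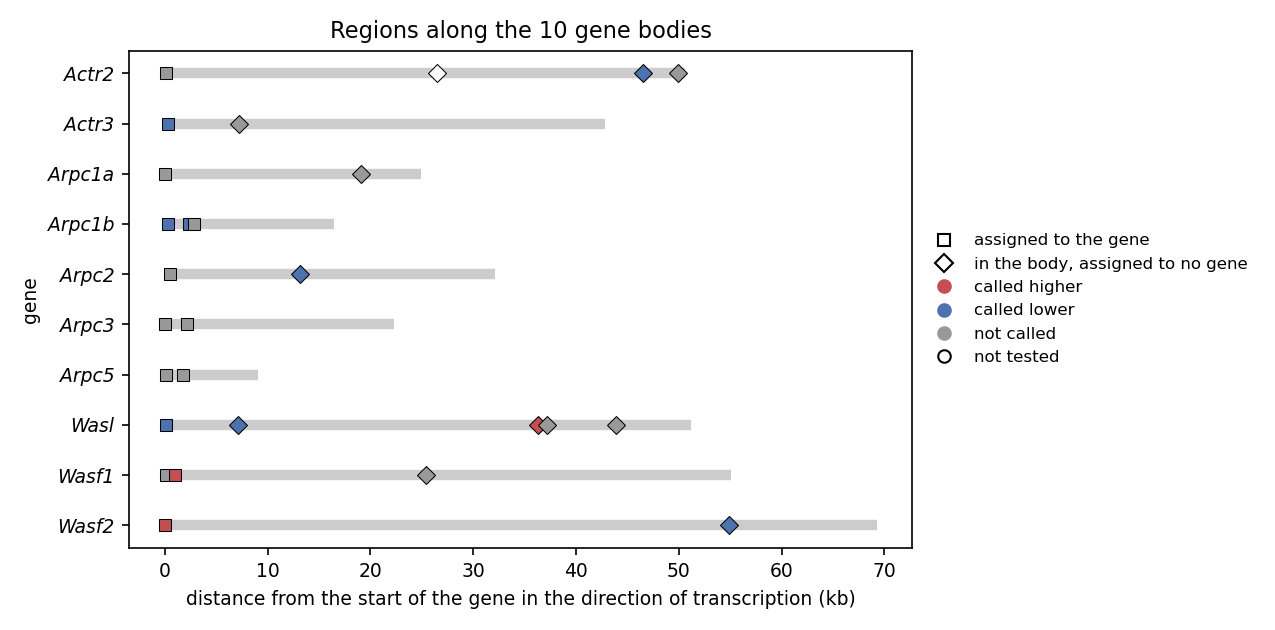
Regions along the bodies of the 10 genes (grey bars), placed by the distance of their centre from the start of the gene in kb; squares are regions assigned to the gene, diamonds regions in the body with no gene assigned. Colour gives the call, and of the 12 diamonds 4 are lower, 1 is higher, 6 are not called and 1 was not tested.

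The partners of the complex were taken from 7 lists with 56 gene names, of which 44 had a region. Their 53 tested regions included 10 called higher and 7 called lower (32.1%), with a median log2 change of 0.01, where 41.3% of all regions were called. Of the 41 tested promoter regions among them, 5 were higher and 7 lower (29.3%), near the 32.7% called of all promoter regions, with a median of -0.04. The counts of the single lists below stand against the same shares, 41.3% of all regions (20.6% higher, 20.7% lower) and 32.7% of promoter regions (14.0% higher, 18.7% lower). Most regions of each list were promoter regions. Without GFP guide replicate 3 the counts over all lists were 4 higher and 2 lower. Leaving out Actg1 guide replicate 2 gave 6 in each direction, where 36.1% of all regions were then called. Leaving out Actg1 guide replicate 3 gave 8 higher and 4 lower, where 37.5% of all regions were.

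Of the further subunits, Arpc5l, a form of Arpc5, had a log2 change of -0.04 (adjusted p = 0.743) and Actr3b, a form of Actr3, of -0.03 (0.922). Of 3 regions of other nucleation promoting factors 0 were higher and 1 lower. This was the promoter of Washc1, the activator that works on endosomes, with 367, 356 and 364 against 299, 318 and 309 (log2 change -0.23, adjusted p = 0.0102). Its call ended without GFP guide replicate 3 (-0.23, 0.102). Jmy and Whamm, further activators, had log2 changes of -0.08 and 0.01 (adjusted p = 0.355 and 0.968).

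The WAVE regulatory complex holds WAVE proteins inactive until Rac binds, and it had 1 promoter higher and 2 lower of 5 (median -0.03), where 32.7% of all promoter regions were called. Cyfip1, the subunit that binds Rac, had 367, 333 and 374 against 289, 262 and 275 (log2 change -0.39, adjusted p = 6.73e-05), a fall in all 15 alternatives. Nckap1, its partner subunit, had 446, 447 and 460 against 430, 372 and 398 (-0.18, adjusted p = 0.0312). Brk1, the smallest subunit, had 196, 202 and 201 against 258, 256 and 214 (0.27, adjusted p = 0.0159). At each of these 3 promoters the groups did not overlap.

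The Brk1 call ended without GFP guide replicate 3 (adjusted p = 0.152), and also once replicate 1 (0.106) or 2 (0.0889) of the Actg1 guide was left out. The Nckap1 call ended in 6 of 15 alternatives, with equal total signal (adjusted p = 0.0554), cyclic loess scaling (0.0628), estimated reads (0.0546), and without GFP guide replicate 3 (0.26) or once replicate 2 (0.141) or 3 (0.083) of the Actg1 guide was left out.

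Among 8 regions of WASH complex partners, 6 of them promoter regions, 1 was higher and 1 lower (25%, median -0.12). Of all regions 41.3% were called, and of all promoter regions 32.7%. Capza2 encodes a subunit of the protein that caps filament ends. Its region 914 bp from the TSS had 294, 300 and 301 against 375, 372 and 376 (log2 change 0.32, adjusted p = 0.000353). Its regions at 2230 bp (0.16, adjusted p = 0.554) and 4443 bp (-0.16, adjusted p = 0.198) were not called. At 4443 bp all Actg1 guide libraries were below, with 207, 192 and 185 against 178, 177 and 161. Washc3, a WASH subunit, had 273, 296 and 293 against 224, 230 and 204 (-0.40, adjusted p = 0.00024). Both calls held in all 15 alternatives.

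N-WASP partners and inputs had 2 regions higher and 1 lower of 11 (27.3%, median 0.05), 8 of them promoter regions. Of all regions 41.3% were called, and of all promoter regions 32.7%. Wipf1 encodes WIP, which binds and stabilizes N-WASP. Its region 2932 bp from the TSS had 55, 60 and 68 against 120, 116 and 122, the largest rise of the lists (log2 change 0.92, SE 0.134, adjusted p = 4.18e-07), while its promoter region had -0.08 (adjusted p = 0.474). The adaptor genes differed in direction. The Grb2 promoter had 318, 326 and 319 against 410, 427 and 420 (0.39, adjusted p = 1.78e-05), and the Nck1 promoter 829, 750 and 795 against 718, 639 and 617 (-0.27, adjusted p = 0.00016). Cdc42, the GTPase that activates N-WASP, had 0.09 at its promoter (adjusted p = 0.387). The rises of Wipf1 and Grb2 held in all 15 alternatives, and the Nck1 call ended without GFP guide replicate 3 (-0.27, adjusted p = 0.0519).

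Rac inputs to WAVE had 4 regions higher and 2 lower of 15 (40% against 41.3% of all regions, median -0.04). Rac1, the widely expressed Rac, had a log2 change of -0.13 at its promoter (adjusted p = 0.192). Rac3 fell at a low region 856 bp from the TSS, with 12, 17 and 22 against 10, 11 and 5 (-1.03, SE 0.394, adjusted p = 0.0326), and had -0.11 at the region nearest to its TSS (adjusted p = 0.748). Arf1, a GTPase that acts with Rac on WAVE, rose 1824 bp from its TSS, with 24, 33 and 36 against 46, 49 and 54 (0.61, adjusted p = 0.0107), in all 15 alternatives. Tiam1, an exchange factor for Rac, had 38, 40 and 44 against 52, 59 and 67 at 1664 bp (0.50, adjusted p = 0.0218). Its promoter region had 503, 494 and 498 against 455, 481 and 426. There all Actg1 guide libraries were below, but the log2 change of -0.14 was not called (adjusted p = 0.0911).

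Dock1, another Rac exchange factor, changed in both directions. Its region 3124 bp from the TSS had 52, 64 and 57 against 74, 82 and 74 (log2 change 0.41, adjusted p = 0.0294). Its promoter, named after its values were seen, had 184, 184 and 194 against 172, 150 and 150 (-0.27, adjusted p = 0.0339). The Arf1 promoter, named likewise, had 0.21 (adjusted p = 0.0192).

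Apart from the Arf1 region at 1824 bp, each of the Rac input calls ended without GFP guide replicate 3. The adjusted p was then 0.377 for Rac3, 0.0866 for Tiam1, 0.147 and 0.255 for Dock1 and 0.188 for the Arf1 promoter. Rac3 also did not pass without GFP guide replicate 2 (0.0804), nor once replicate 1 (0.0526) or 3 (0.117) of the Actg1 guide was left out. Nor did Tiam1 pass without Actg1 guide replicate 2 (0.0524) or 3 (0.0909). The Dock1 region at 3124 bp did not pass without GFP guide replicate 1 (0.0918), nor once replicate 2 (0.0778) of the Actg1 guide was left out, and its promoter not without Actg1 guide replicate 2 (0.0949) or 3 (0.0934), with equal total signal (0.0511) or with estimated reads (0.0577). The Arf1 promoter did not pass without Actg1 guide replicate 1 (0.108) or 3 (0.106).

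Branch stabilizers and inhibitors had 2 regions higher and 0 lower of 9 (22.2%, median 0.09), both at Coro1c. Of all regions 41.3% were called, and of all promoter regions 32.7%. Coro1c encodes a coronin, a family that acts on branches. Its promoter had 584, 556 and 611 against 621, 722 and 650 (log2 change 0.17, adjusted p = 0.022), and its region at 1527 bp 69, 65 and 59 against 86, 85 and 81 (0.41, adjusted p = 0.0218). The groups did not overlap at either. Cttn, the gene of cortactin, which stabilizes branches, had 0.10 (adjusted p = 0.247), and Arpin, an inhibitor of the complex, 0.06 (0.746).

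Both Coro1c calls ended without GFP guide replicate 3 (adjusted p = 0.1 at the promoter and 0.203 at 1527 bp). The promoter call also ended without Actg1 guide replicate 2 (0.172) or 3 (0.0638), and the other without Actg1 guide replicate 1 (0.0629). The 1 region of Hcls1, a blood cell relative of cortactin, was too low to be tested.

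**Figure D5:**
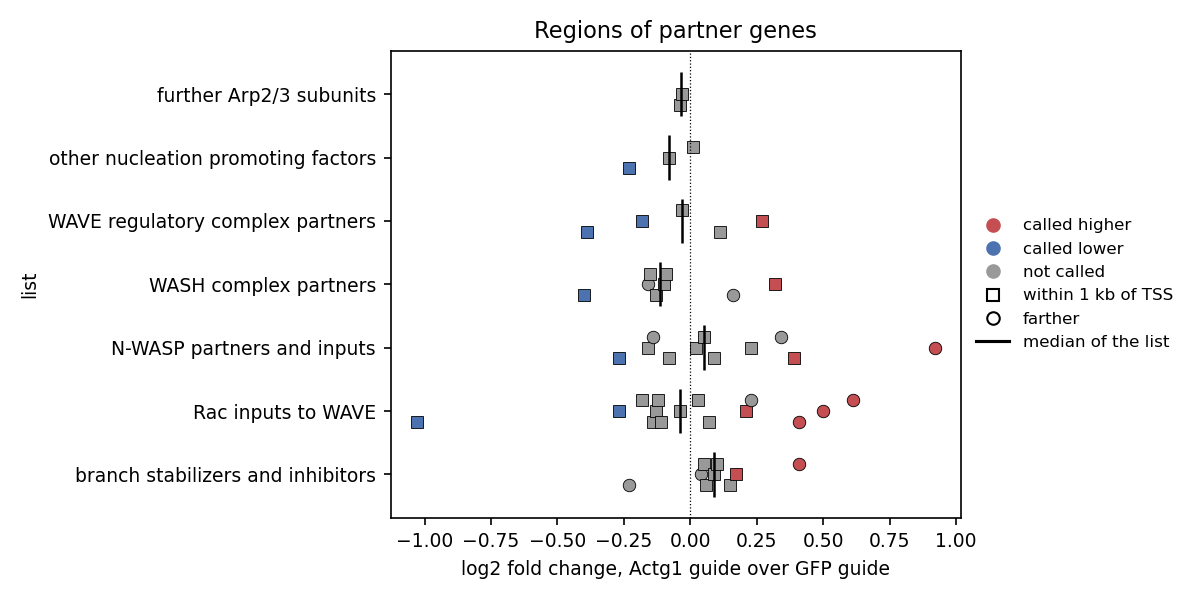
Log2 fold change of the Actg1 guide over the GFP guide (x axis) for the 53 tested regions of partner genes in 7 lists; squares are promoter regions, circles regions farther from the TSS, and the black line is the median of the list. Called regions, 10 higher (red) and 7 lower (blue), lie on both sides of 0, and the list medians lie between -0.12 and 0.09.

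Of the member promoters, that of Actr3 had the smallest adjusted p, and the promoters most like it in log2 signal over the 6 libraries were those of Mccc2, Tmem19, Shisa4, Faim and Hspa13. Pearson's r was 0.9959 for Mccc2 and Tmem19 and 0.9953 to 0.9954 for the other 3. Mccc2 had 420, 445 and 470 against 353, 339 and 340. Of the promoter regions compared, 350 of 9915 (3.53%) had an r over 0.95 with Actr3.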

How the data were processed

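ATAC-seq regions and values came from 1 table, in which the authors deposited a whole-number signal for each of 63430 regions and each of the 6 libraries. The values were taken as normalized read counts that had been rounded, because the column totals were nearly equal. The submitters' processing notes name the mm10 build and, in no stated role or order, Trimmomatic 0.39, Picard 3.0.0, STAR 2.7.10a, DESeq, DESeq2 1.36.0 and featureCounts. Not given in the sources used here are the peak caller, how peaks were merged, any Tn5 offset and the formula of the normalization. The table's description text did not match its gene names and was not used.

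The signal that 1 read is worth was estimated from the uneven use of small whole numbers and gave the estimated reads. The first and second GFP guide libraries were averaged into 1 sample. A region was tested if its signal reached 10 in 3 or more libraries. Testing used limma 3.58.1 in R 4.3.3, with a mean-variance trend, on log2(signal + 1), a scale that understates the change of low regions. Benjamini-Hochberg adjustment ran over all 61327 tested regions. Ratios between regions used the signal of the whole region, not per kb, and were compared by exact two-sided permutation tests.

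The members, the partner lists and the tests were chosen with earlier results of these data known. Named were every member and, in each partner list, the called regions, up to the 4 with the largest absolute log2 fold change. Also named were the 5 promoters most correlated with the member promoter of smallest adjusted p. Some uncalled partner regions, and the Dock1 and Arf1 promoters, were named outside this rule, and other uncalled partner regions were not named. Alternatives changed the pseudocount, the filter, the scaling, the unit, the averaging, the replicate block, the promoter window and the libraries included. Promoter sequences and start sites came from RefSeq on GRCm38.p6.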

Additional observations from a re-analysis of the deposited data

How the results depend on the processing

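The cause of each change below was not tested. The library that mattered most was GFP guide replicate 3, without which 1 GFP guide sample was left. Of the 28 called member, partner and gene body regions, 19 did not pass without it, and 10 without Actg1 guide replicate 2. When 1 library was left out, regions called higher over the genome ranged from 7381 to 12490 and those called lower from 5412 to 12216. Member regions called higher then ranged from 0 to 2 and lower from 1 to 5, and partner regions from 4 to 11 higher and from 2 to 7 lower. The difference between guides in the log2 ratio of Arpc1b to Arpc1a ranged from -0.17 to 0.03. This difference changed sign without Actg1 guide replicate 1 (0.03). At 2 uncalled promoters the sign changed. Arpc3 ranged from -0.13 (without GFP guide replicate 3) to 0.16, and Arpc5 from -0.10 to 0.04 (without Actg1 guide replicate 3). With a promoter window of 5000 bp, 10 partner regions counted as promoter regions were higher and 7 lower, against 5 and 7 with 1000 bp. These 10 and 7 are the counts of partner regions at any distance, so the wider window changed which regions were counted and not their calls. The low Rac3 region has no value under the filter at a signal of 30.

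Under the other settings, counts of called regions stayed within 1.5 times. Equal total signal gave 13482 higher and 11882 lower over all regions, and the median log2 change moved from -0.006 to 0.015. The 6 libraries taken as separate samples gave 14071 higher and 14105 lower, and 6 member regions lower with 2 higher. With the replicate number as a block these were 14322 and 14403, and again 6 lower and 2 higher. The numbers are not shown to pair the libraries, since the deviations of same-numbered libraries correlated at 0.014 to 0.025, although each correlated best with its own number. With a replicate block the paralogue differences were -0.07 for Arpc1b over Arpc1a, -0.13 for Actr3 over Actr2 and 0.39 for Wasf2 over Wasf1.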
